A study of Mus with 12 samples.

Results

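The genes of MHC class I antigen presentation were followed in whole blood of mice with chemically induced dermatitis and of mice that also received human stem cells. They are 9 of the 25247 genes in the blood table, taken by name: the heavy chains H2-K1, H2-D1, H2-Q7 and H2-T23, the light chain B2m, the peptide transporter subunits Tap1 and Tap2, the loading factor Tapbp, and the transactivator Nlrc5. All 9 were in the table and all 9 passed the filter on low values, which asked for at least 1 FPKM (fragments per kilobase of transcript, scaled to the sequencing depth of the library) in at least 3 of 12 libraries. H2-K1, H2-D1, H2-T23 and B2m reached 1 FPKM in every library, while Tap1 did so in 9 libraries and Nlrc5 in 6. For Nlrc5 these were the Solvent and scMSC libraries, so it passed the filter through the groups where it is highest. Its calls in comparisons with those groups therefore add no support to counts of called genes. Blood was taken on day 30 from 12 female BALB/c mice, bought at 6 weeks of age, with 3 mice in each of 4 groups and 1 library per mouse. All mice had shaved backs. The Solvent group received only the acetone and olive oil vehicle. The DNCB group was sensitised with 1% and challenged with 0.5% 2,4-dinitrochlorobenzene, a hapten that provokes contact dermatitis. The scMSC group received DNCB and injections of 2e6 human umbilical cord mesenchymal stem cells in 100 µL under the skin. The scivMSC group received DNCB and the same number of cells, with 50 µL under the skin and 50 µL into the tail vein. A DNCB group injected with cell-free solution was not analysed here, so the injected cells and the injection itself cannot be told apart.

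An MHC class I molecule is a heavy chain that spans the membrane, held together with β2-microglobulin and with a short peptide in its groove. Proteasomes cut cytosolic proteins into peptides, the transporter TAP carries them into the endoplasmic reticulum, and tapasin holds empty class I molecules at TAP until a peptide binds. CD8+ T cells read the peptide on the cell surface and natural killer cells read the presence of class I itself. Nearly all nucleated cells carry class I, leukocytes at high levels, and interferon-γ raises the pathway through transcription factors that include IRF1 and NLRC5.

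Of the 9 genes, 7 lie on chromosome 17 and belong to or flank the mouse H2 complex. In the coordinates of the deposited table, which lie on GRCm38, Tapbp was at chr17:33915899-33926197 and H2-K1 at chr17:33996017-34000347. Tap1 at chr17:34187553-34197225 and Tap2 at chr17:34203527-34216321 were neighbours on the same strand, 6301 bp apart. H2-D1 was at chr17:35262730-35267499, H2-Q7 at chr17:35439155-35443773 and H2-T23 at chr17:36029773-36032855. B2m was at chr2:122147686-122153083 and Nlrc5 at chr8:94434356-94527272. The heavy chain genes are close relatives that can share reads, and the reference genome comes from a strain with another H2 haplotype than BALB/c. How reads were divided among them is not given in the sources used here, so the level of a single heavy chain gene is uncertain. Overlapping genes add to this. Zbtb22 shares 3422 bp of the Tapbp span on the same strand, with a mean of 1.02 FPKM, and A930015D03Rik covers the whole of H2-T23 on the other strand, with a mean of 0.248 FPKM.

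The libraries held 52.2e6 to 65.1e6 estimated counts. Haemoglobin genes took 78.4% to 89.0% of them and left 5.84e6 to 12.9e6 counts for all other genes. Scaled by total counts, the median log2 fold change over the 5527 tested genes was 0.06 for DNCB against Solvent, while against DNCB it was -0.63 in scMSC and -1.53 in scivMSC. TMM scaling, which centres most genes near 0, gave medians of -0.09, 0.06 and 0.04 for the same comparisons. Directions against DNCB are therefore given under both scalings and relative to the median of all tested genes. In bulk blood, fewer cells of a type and less RNA per cell cannot be told apart.

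B2m was the most abundant of the genes per kilobase, with a mean of 352 FPKM over the 12 libraries. H2-D1 followed with 68.2 FPKM, then H2-T23 with 12.8 and H2-K1 with 10.7. The machinery was lower, with 4.50 FPKM for Tapbp, 3.45 for Tap2 and 2.21 for Tap1, and Nlrc5 was the lowest at 1.29 FPKM. Over the 4 groups together, 7 of the 9 passed edgeR's quasi-likelihood F test with Benjamini-Hochberg adjustment, at a threshold of 0.05, as did 72.3% of all tested genes. H2-K1 (adjusted p = 0.520) and B2m (adjusted p = 0.990) did not pass it in edgeR. Under TMM scaling B2m passed (adjusted p = 5.64e-05), and H2-D1 (0.0679), H2-T23 (0.115) and Tapbp (0.179) no longer did in edgeR's F test.

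**Figure D1:**
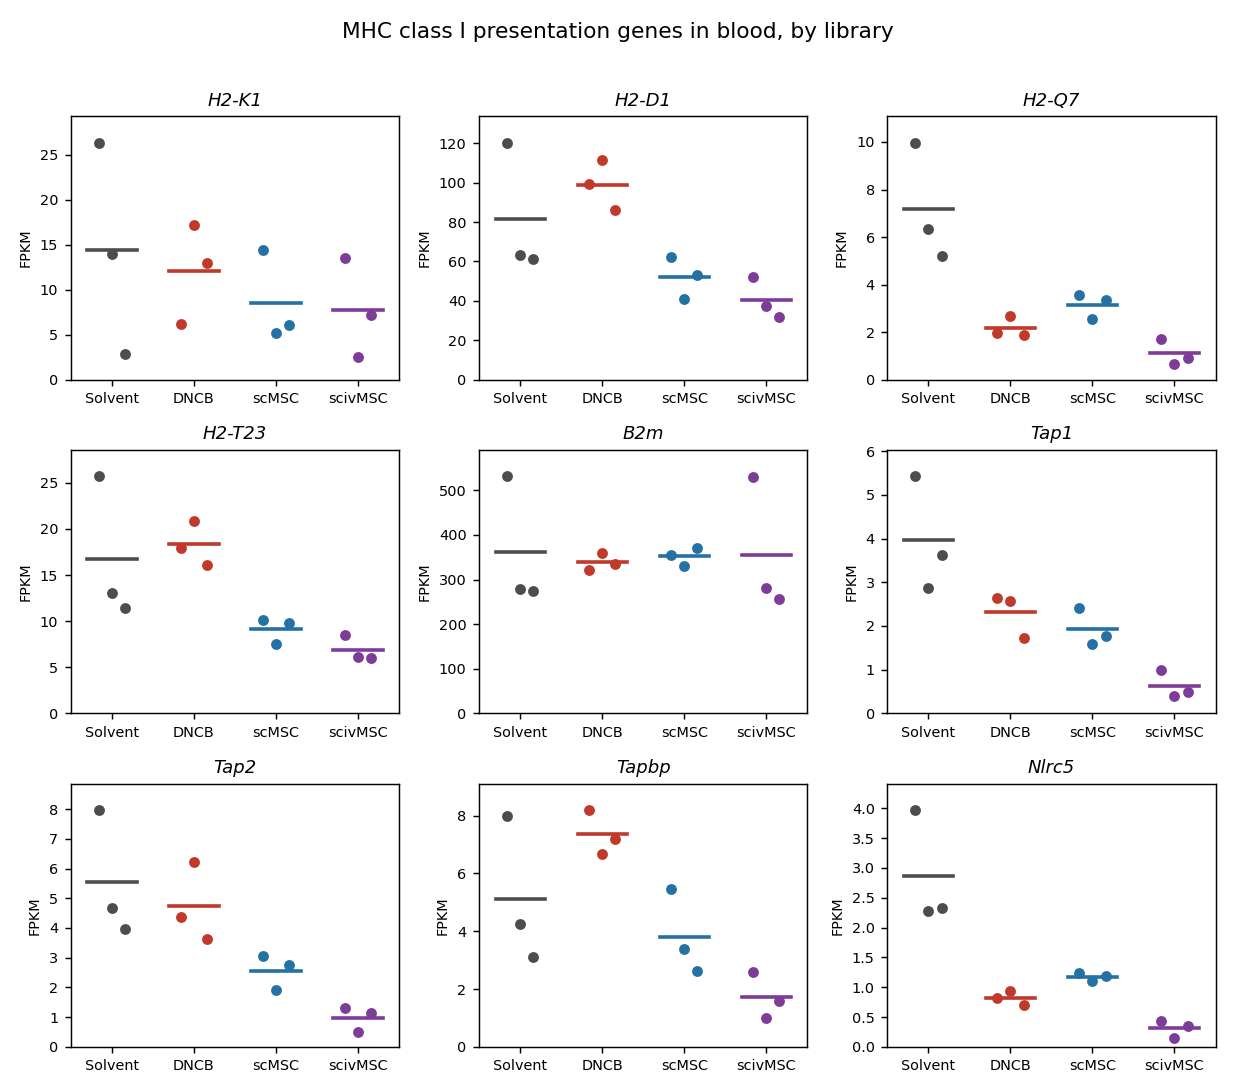
Each panel plots the level of 1 gene in FPKM on a linear axis from 0, with 1 point per library and a line at the mean of the 3 libraries of a group. Nlrc5 and H2-Q7 lie highest in all 3 Solvent libraries, H2-D1 and H2-T23 lie lower in both MSC groups than in DNCB, and B2m has group means between 338 and 362 FPKM.

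H2-D1, a classical heavy chain that presents to CD8+ T cells, was measured at 120, 63.1 and 61.0 FPKM in Solvent, 99.2, 112 and 86.0 in DNCB, 62.2, 40.9 and 53.3 in scMSC, and 51.9, 37.6 and 31.8 in scivMSC. All DNCB libraries lay above all libraries of both MSC groups, while Solvent overlapped DNCB and scMSC. H2-T23 encodes Qa-1, a nonclassical molecule that natural killer cells read through their NKG2A receptor. Its levels were 25.7, 13.1 and 11.5 FPKM in Solvent, 18.0, 20.9 and 16.1 in DNCB, 10.1, 7.56 and 9.76 in scMSC, and 8.44, 6.11 and 5.98 in scivMSC. The order of the group means was the same for both genes, DNCB above Solvent, scMSC and scivMSC, and scMSC and scivMSC overlapped. The ratio of H2-T23 to H2-D1 stayed between 0.162 and 0.214 in the 12 libraries, so the levels moved nearly in step from mouse to mouse (Pearson's r = 0.985 of log2(FPKM + 1) over 12 libraries, which share depth and haemoglobin content).

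H2-Q7, which encodes a nonclassical Qa-2 molecule, had another order. It stood at 9.97, 6.34 and 5.22 FPKM in Solvent, 1.98, 2.66 and 1.86 in DNCB, 3.58, 2.55 and 3.34 in scMSC, and 1.73, 0.669 and 0.906 in scivMSC. Solvent did not overlap any other group, and scivMSC lay below all DNCB and scMSC libraries, while DNCB and scMSC overlapped. H2-K1, the other classical heavy chain, varied most within groups. Its levels were 26.3, 14.0 and 2.85 FPKM in Solvent, 6.24, 17.2 and 13 in DNCB, 14.4, 5.14 and 6.02 in scMSC, and 13.5, 2.49 and 7.21 in scivMSC. The groups overlapped, and the range within each exceeded the distance between the lowest and the highest group mean. The means ran from 7.74 ± 5.54 FPKM (SD, n = 3) in scivMSC to 14.4 ± 11.7 in Solvent.

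B2m, the light chain shared by all class I molecules, was at 531, 280 and 274 FPKM in Solvent, 322, 359 and 334 in DNCB, 355, 331 and 371 in scMSC, and 531, 280 and 256 in scivMSC. The 4 groups overlapped, with means of 362 ± 147 FPKM (SD, n = 3) in Solvent, 338 ± 18.7 in DNCB, 352 ± 19.9 in scMSC and 356 ± 152 in scivMSC. In both Solvent and scivMSC, replicate 1 stood far above the other 2 mice.

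Tap1, a subunit of the peptide transporter, was at 5.43, 2.87 and 3.63 FPKM in Solvent, 2.65, 2.58 and 1.73 in DNCB, 2.42, 1.60 and 1.77 in scMSC, and 0.990, 0.399 and 0.478 in scivMSC. Tap2, its partner subunit, was at 7.97, 4.67 and 3.96 FPKM in Solvent, 4.36, 6.24 and 3.61 in DNCB, 3.04, 1.90 and 2.75 in scMSC, and 1.29, 0.511 and 1.15 in scivMSC. For both subunits the order was Solvent, DNCB, scMSC and scivMSC, and scivMSC lay below every other library. Neighbouring means overlapped for Tap1 between DNCB and scMSC and for Tap2 between Solvent and DNCB. Tapbp, which encodes tapasin, was at 7.99, 4.26 and 3.12 FPKM in Solvent, 8.20, 6.69 and 7.19 in DNCB, 5.46, 3.39 and 2.61 in scMSC, and 2.59, 0.982 and 1.58 in scivMSC. It was highest in DNCB, with Solvent overlapping both DNCB and scMSC, and scivMSC again lay below all others.

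Nlrc5, which activates transcription of class I heavy chain, B2m and Tap1 genes, was at 3.97, 2.28 and 2.33 FPKM in Solvent, 0.814, 0.930 and 0.695 in DNCB, 1.23, 1.10 and 1.18 in scMSC, and 0.435, 0.148 and 0.343 in scivMSC. No library of any group overlapped another group, in the order Solvent, scMSC, DNCB and scivMSC. H2-Q7 had the same order of group means and followed Nlrc5 most closely of the other 8 genes (Pearson's r = 0.986 of log2(FPKM + 1) over 12 libraries), ahead of Tap1 (0.911). B2m followed it least (0.260).

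Comparing DNCB with Solvent shows what the hapten changed. H2-Q7 and Nlrc5 fell in DNCB, and the other 7 genes did not pass the test. H2-Q7 fell 3.30-fold (log2 fold change -1.72, SE 0.38, adjusted p = 0.00402, edgeR with Benjamini-Hochberg adjustment) and Nlrc5 fell 3.51-fold (log2 fold change -1.81, SE 0.39, adjusted p = 0.00294, edgeR). These are 2 of 9 genes called, where 20.5% of all tested genes were called and 4.87% were called lower. A call here needed an adjusted p under 0.05 and a fold change over 2. Both genes passed the same thresholds in all 20 alternatives in which they were tested, with log2 fold changes from -1.91 to -1.33 for H2-Q7 and from -1.95 to -1.07 for Nlrc5. The alternatives reuse the same libraries, and fits without an MSC library keep all DNCB and Solvent values. Nlrc5 passed the filter only through Solvent and scMSC libraries, so it adds no support to the counts here. Tap1 did not overlap between the groups either (log2 fold change -0.77, SE 0.38) but missed the threshold in edgeR (adjusted p = 0.170), and under TMM scaling it had an adjusted p of 0.00239 at a log2 fold change of -0.91. In all, 3 of 9 genes were lower without overlap, against 16.5% of tested genes. Tap2 differed by -0.22 on the log2 scale, H2-K1 by -0.25, B2m by -0.09, H2-T23 by 0.13, H2-D1 by 0.28 and Tapbp by 0.52, with adjusted p from 0.408 to 0.862 in edgeR.

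Ratios within a library, which do not depend on its scaling, differed between the groups for some pairs of genes. The ratio of Tapbp to Tap1 was 1.47, 1.48 and 0.860 in Solvent and 3.10, 2.60 and 4.14 in DNCB. All DNCB libraries lay above all Solvent libraries. The ratio of H2-Q7 to H2-D1 was 0.0829, 0.1005 and 0.0855 in Solvent and 0.0199, 0.0238 and 0.0217 in DNCB, again without overlap. The ratio of Tap1 to Tap2 was 0.680, 0.616 and 0.916 in Solvent and 0.608, 0.413 and 0.480 in DNCB, with all DNCB libraries below Solvent. Only the ratios of Tap1 to Tap2, of H2-K1 plus H2-D1 to B2m, and of B2m to Ptprc were planned. The other ratios were chosen after the values were seen, and all are given without a test.

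**Figure D2:**
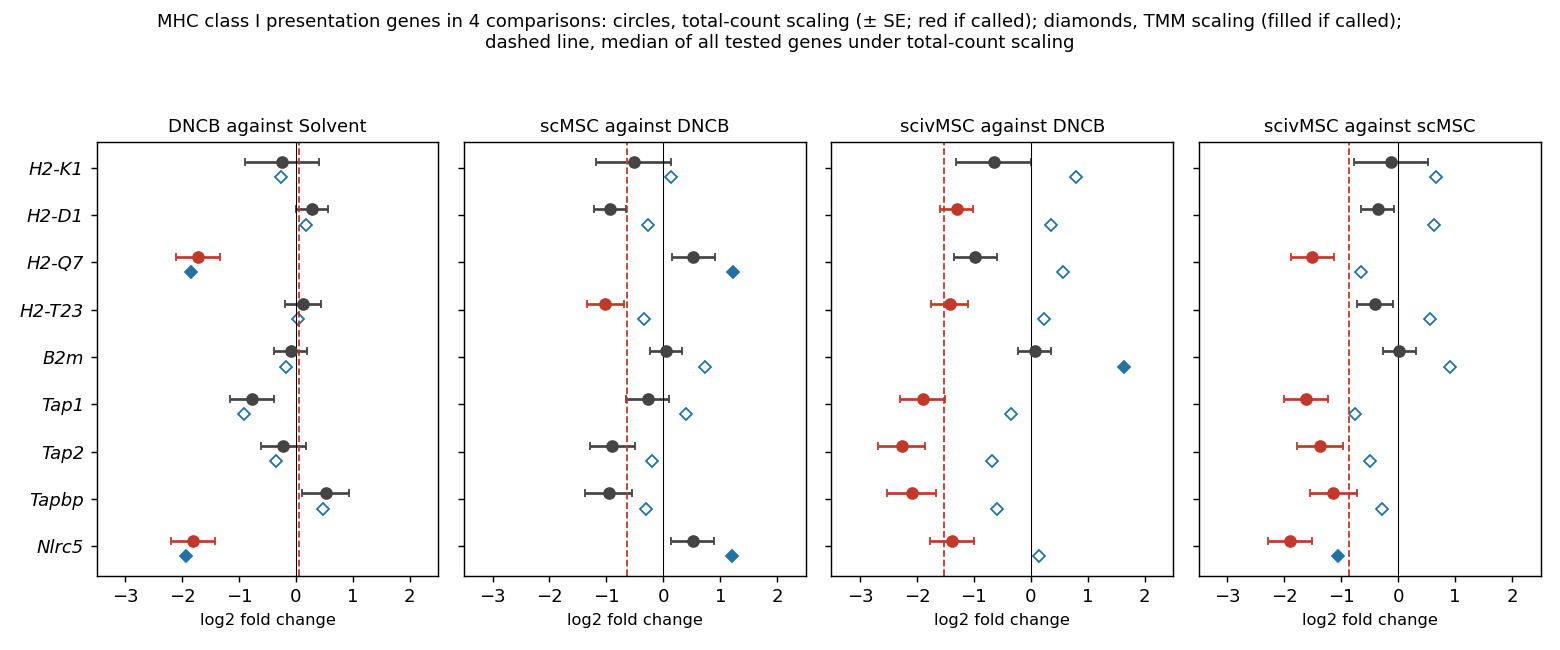
Each panel shows the log2 fold change of the 9 genes in 1 comparison, as circles with standard errors under total-count scaling (red where called) and as diamonds under TMM scaling (filled where called), with a dashed line at the median of all tested genes under total-count scaling. H2-Q7 and Nlrc5 are lower in DNCB than in Solvent under both scalings, while in scivMSC against DNCB the circles of 6 genes are called lower and only Tap1, Tap2 and Tapbp keep a negative value as diamonds.

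Other genes of the pathway were described from lists of 46 genes, of which 43 were in the table and 30 passed the filter. Between DNCB and Solvent 2 of these 30 rose and 8 fell, where 15.6% of all tested genes were called higher and 4.87% lower. Under TMM scaling 1 was called higher and 11 lower, against 16.1% and 11.5% of all tested genes. Of the 8 calls of lower genes under total-count scaling 5 were further H2 heavy chains, out of 8 tested, with a median log2 fold change of -1.25, where the median of all tested genes was 0.06. H2-Q4, another gene of the Q region, fell from 16.6 to 6.32 FPKM (log2 fold change -1.40, SE 0.43, adjusted p = 0.0274, edgeR). H2-Q6, a second Qa-2 gene, fell from 12.7 to 4.03 FPKM (log2 fold change -1.66, SE 0.42, adjusted p = 0.00933, edgeR). H2-T22, a ligand of some γδ T cell receptors, fell from 6.79 to 3.15 FPKM (log2 fold change -1.10, SE 0.38, adjusted p = 0.0491, edgeR). H2-T24, the most abundant gene of this list, was at 8.94 FPKM in Solvent and 10.5 in DNCB and did not pass the test (adjusted p = 0.677, edgeR). H2-K2 and H2-M3, named after their values were seen, had log2 fold changes of -2.08 and -1.85 and were the other calls. H2-K2 reached 1 FPKM in Solvent libraries only, and so did H2-T10, which was called lower under TMM scaling only. Both passed the filter through the group where they are high, so they add no support to these counts.

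Of 6 chaperones and trimming factors of the endoplasmic reticulum, 1 fell in DNCB, and TMM scaling and DESeq2 called 2. The call under total-count scaling was the aminopeptidase Erap1 (log2 fold change -1.38, adjusted p = 0.0221, edgeR), named after its value was seen. Erap1 reached 1 FPKM in Solvent libraries only. It passed the filter through the group where it is high, so its call adds no support. The lectin chaperone Calr was at 16.8 FPKM in Solvent and 11 in DNCB, Pdia3 at 10.0 and 8.03, Canx at 4.60 and 2.79, and Hspa5 at 5.80 and 5.81, and none of them passed the test under total-count scaling. Under TMM scaling Calr, Canx and Pdia3 had adjusted p of 0.00135, 0.00669 and 0.0209 in edgeR, short of a 2-fold change. None of the 5 genes of the immunoproteasome and its PA28 cap was called in edgeR, 1 had an unadjusted p under 0.05, and TMM scaling and DESeq2 called 1. Psmb8, a catalytic subunit, was at 5.97 FPKM in Solvent and 3.30 in DNCB (adjusted p = 0.170, edgeR), and Psme1, a subunit of PA28, was at 8.21 and 5.88. Of 4 tested transcription factors none was called in edgeR, by TMM scaling, by DESeq2 or by limma, and 0 had an unadjusted p under 0.05, with Irf1 at 5.61 and 7.02 (log2 fold change 0.32, adjusted p = 0.574, edgeR).

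The co-receptor of class I and the interferon receptors moved in both directions. Cd8b1, a chain of the CD8 co-receptor, fell in DNCB from 8.78 to 2.92 FPKM (log2 fold change -1.58, SE 0.41, adjusted p = 0.0101, edgeR). Its partner chain Cd8a, named after its value was seen, had a log2 fold change of -1.78. Ifngr2, the signalling chain of the interferon-γ receptor, rose from 1.82 to 5.41 FPKM (log2 fold change 1.57, SE 0.41, adjusted p = 0.0103, edgeR). Ifnar2, of the type I interferon receptor, rose from 3.09 to 6.74 FPKM (log2 fold change 1.13, SE 0.31, adjusted p = 0.0150, edgeR), and Ifngr1 was at 5.52 and 10.2 FPKM, short of a 2-fold change.

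Markers of blood cell types moved with these differences. Between DNCB and Solvent all 10 neutrophil markers rose, with a summed level of 221 to 445 FPKM in Solvent and 6995 to 10978 in DNCB. In the same comparison 9 of 10 T cell markers, 7 of 7 tested B cell markers and 2 of 3 tested natural killer cell markers fell. Their summed levels in Solvent and DNCB were 117 to 203 and 49.3 to 60.9 FPKM for T cells, 43.0 to 140 and 12.2 to 34.6 for B cells, and 24.9 to 30.3 and 8.79 to 12.3 for natural killer cells. Of the 8 pan-leukocyte markers 1 rose (0 under TMM scaling), and their summed level was 142 to 259 FPKM in Solvent and 279 to 423 in DNCB. No marker of these 5 lists was at 0 in any library. Their part in the lower H2-Q7 and Nlrc5 was not tested. Relative to Ptprc, which encodes the leukocyte antigen CD45, Nlrc5 was 0.308 to 0.497 in Solvent and 0.0599 to 0.0930 in DNCB, without overlap, and H2-D1 was 8.52 to 15.0 and 7.41 to 11.3, with overlap. H2-Q7, Tap1, Tap2 and B2m were also lower in DNCB relative to Ptprc without overlap, while H2-K1, H2-T23 and Tapbp overlapped. The FPKM values of Tap2 and B2m themselves overlapped between the groups, so their lower ratios depend on the level of Ptprc.

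The comparison of scMSC with DNCB asks what cells under the skin changed in sensitised mice. H2-T23 fell 2.02-fold (log2 fold change -1.02, SE 0.32, adjusted p = 0.0258, edgeR), the only call among the 9 genes, where 26.1% of all tested genes were called and 24.9% were called lower. Under TMM scaling its log2 fold change was -0.33 (adjusted p = 0.217, edgeR) and it was not called. H2-D1 differed by -0.94 on the log2 scale (adjusted p = 0.0226, SE 0.29, edgeR), short of a 2-fold change, and -0.26 under TMM scaling. It was called without DNCB replicate 3 (-1.03) and without scMSC replicate 1 (-1.08). H2-T23 lay 0.38 and H2-D1 0.30 below the median of all tested genes on the log2 scale. The H2-T23 call rested on single libraries: the adjusted p was 0.0551 without DNCB replicate 1, 0.0985 without DNCB replicate 2, 0.0558 without scMSC replicate 1, 0.118 without scMSC replicate 2 and 0.0675 without scMSC replicate 3, all in edgeR.

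H2-Q7 and Nlrc5 lay on the other side. Nlrc5 was higher in all scMSC libraries than in all DNCB libraries, by 0.52 on the log2 scale (adjusted p = 0.324, SE 0.38, edgeR), which did not pass under total-count scaling. H2-Q7 differed by 0.53 (adjusted p = 0.307, SE 0.37, edgeR), with overlap. They lay 1.15 and 1.16 above the median of all tested genes on the log2 scale, and under TMM scaling both were called higher, at log2 fold changes of 1.21 (adjusted p = 0.000370, edgeR) and 1.22 (adjusted p = 9.15e-05, edgeR). Under that scaling 8.74% of all tested genes were called higher. The ratio of H2-Q7 to H2-D1, which no scaling touches, was 0.0576, 0.0624 and 0.0627 in scMSC, above all DNCB and below all Solvent libraries. Its denominator H2-D1 was lower in scMSC than in DNCB, with means of 52.1 and 99.0 FPKM. In scivMSC the ratio was 0.0334, 0.0178 and 0.0285, which overlapped DNCB.

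The remaining genes did not pass in scMSC. Tapbp had a log2 fold change of -0.96 (adjusted p = 0.0949, edgeR) and Tap2 of -0.89 (adjusted p = 0.101, edgeR), both without overlap with DNCB. In total 5 genes did not overlap, 4 of them lower, against 55.3% and 49.8% of all tested genes. Tap1 at -0.28 and H2-K1 at -0.52 turned positive under TMM scaling (0.41 and 0.14). B2m was at 0.05, and at 0.73 under TMM scaling (adjusted p = 0.0166, edgeR), short of a 2-fold change. The ratio of H2-D1 to B2m showed the unequal levels within each library. It was 0.226, 0.226 and 0.223 in Solvent, 0.308, 0.311 and 0.257 in DNCB, 0.175, 0.123 and 0.144 in scMSC, and 0.0978, 0.134 and 0.124 in scivMSC. DNCB lay above Solvent and Solvent above both MSC groups, which overlapped each other. With H2-K1 added to H2-D1 the ratio was 0.233 to 0.276 in Solvent, 0.296 to 0.359 in DNCB, 0.139 to 0.215 in scMSC and 0.123 to 0.153 in scivMSC, in the same order.

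**Figure D3:**
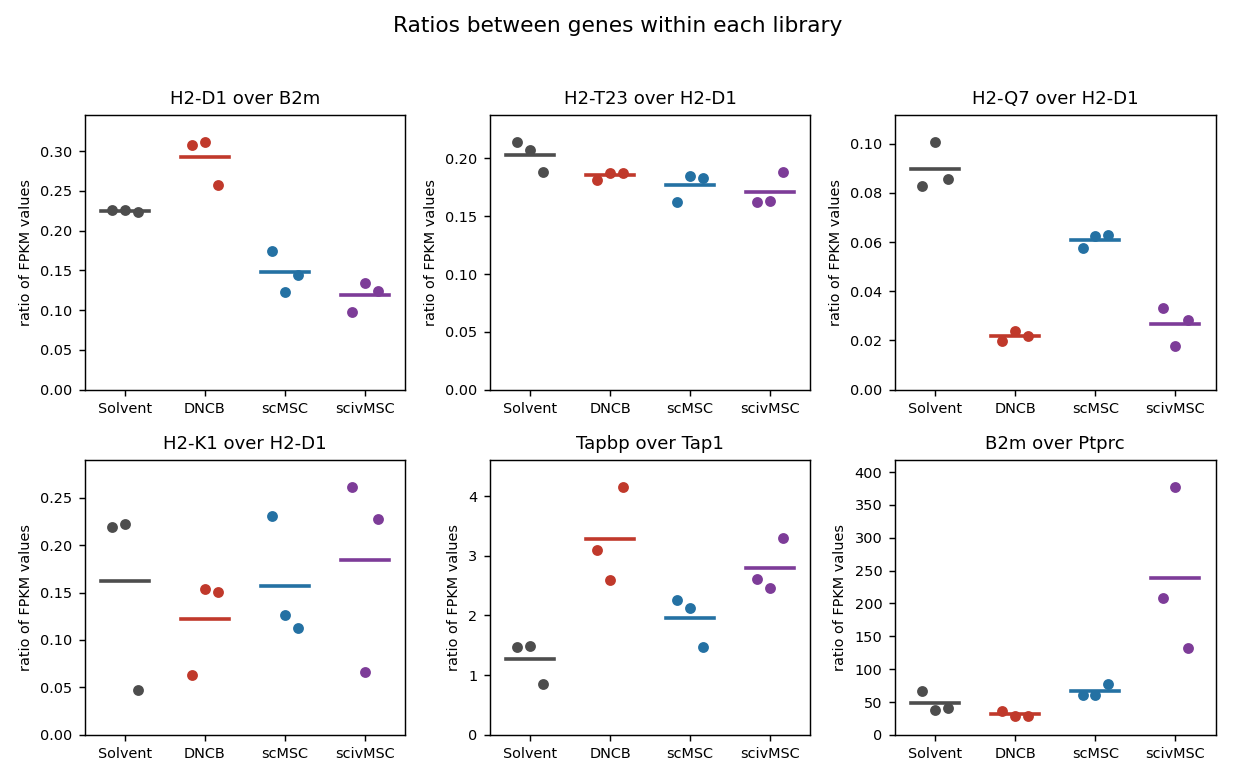
Each panel plots the ratio of the FPKM values of 2 genes within each library on a linear axis from 0, with 1 point per library and a line at the group mean. H2-D1 over B2m is 0.257 to 0.311 in DNCB and at most 0.175 in the MSC groups, H2-Q7 over H2-D1 is highest in Solvent, and B2m over Ptprc is 132 or more in scivMSC and at most 76.9 elsewhere.

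Of the 30 other pathway genes tested, 6 fell and none rose in scMSC against DNCB, where 24.9% of all tested genes were called lower, and under TMM scaling 4 were called higher and 2 lower, against 8.74% and 12.3% of all tested genes. Both that stayed lower were chains of the interferon-γ receptor. Ifngr2 fell from 5.41 to 1.11 FPKM (log2 fold change -2.29, SE 0.42, adjusted p = 0.00106, edgeR) and Ifngr1 from 10.2 to 3.11 FPKM (log2 fold change -1.71, SE 0.31, adjusted p = 0.00105, edgeR). The transcription factors Irf1, Irf2 and Rela had log2 fold changes of -1.11, -1.36 and -1.24 and were called under total-count scaling, though not under TMM scaling. Psmb9, the immunoproteasome subunit whose gene lies beside Tap1 and shares 212 bp with it on the other strand, was the other call (log2 fold change -1.39, adjusted p = 0.0302, edgeR) and is named after its value was seen. None of the 8 tested H2 heavy chains was called in edgeR or had an unadjusted p under 0.05, while TMM scaling and DESeq2 called 2 higher, with a median of 0.04 where the median of all tested genes was -0.63. H2-K2, among those called higher under TMM scaling, was below 1 FPKM in every scMSC and DNCB library.

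In this comparison all 10 neutrophil markers and 6 of 8 pan-leukocyte markers fell, and under TMM scaling 10 and 0 were called lower. Neutrophil markers summed to 579 to 721 FPKM in scMSC, and pan-leukocyte markers to 121 to 154 FPKM. No T cell or B cell marker was called in edgeR, with summed levels of 52.4 to 79.4 and 13.4 to 19.2 FPKM in scMSC. An unadjusted p under 0.05 was found for 2 T cell and 0 B cell markers, and TMM scaling called 8 of the 10 T cell markers higher. Whether the shift in cell types contributed to the levels of H2-T23, H2-D1, H2-Q7 or Nlrc5 was not tested.

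The comparison of scivMSC with DNCB asks what the combined route changed. Under total-count scaling 6 of the 9 genes fell, H2-D1, H2-T23, Tap1, Tap2, Tapbp and Nlrc5, where 63.4% of all tested genes were called and 62% were called lower, so the share of the 9 was near the background. Tap2 fell 4.82-fold (log2 fold change -2.27, SE 0.41, adjusted p = 0.000192, edgeR), Tapbp 4.27-fold (log2 fold change -2.09, SE 0.43, adjusted p = 0.000515, edgeR) and Tap1 3.71-fold (log2 fold change -1.89, SE 0.40, adjusted p = 0.000615, edgeR). On the log2 scale H2-T23 differed by -1.42 (adjusted p = 0.00117, SE 0.32, edgeR), Nlrc5 by -1.39 (adjusted p = 0.00494, SE 0.39, edgeR) and H2-D1 by -1.30 (adjusted p = 0.000984, SE 0.29, edgeR). H2-Q7 had a log2 fold change of -0.98 (adjusted p = 0.0309, edgeR), just short of 2-fold, and was called without DNCB replicate 1, DNCB replicate 3 or scivMSC replicate 1 (-1.04, -1.07 and -1.47). H2-K1 had a log2 fold change of -0.65 (adjusted p = 0.387, edgeR). In all, 7 genes were lower without overlap, against 67.9% of all tested genes.

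Relative to the median of all tested genes, the 9 genes parted. The loading machinery lay below that median by 0.74 for Tap2, 0.57 for Tapbp and 0.37 for Tap1 on the log2 scale. The heavy chains and Nlrc5 lay above it, by 0.10 for H2-T23, 0.23 for H2-D1, 0.55 for H2-Q7, 0.88 for H2-K1 and 0.14 for Nlrc5. Under TMM scaling the log2 fold changes of these 5 genes accordingly turned positive, from 0.15 to 0.80, and none of them was called. Tap2 kept a log2 fold change of -0.69 (adjusted p = 0.00792, edgeR), while Tapbp at -0.59 and Tap1 at -0.35 had an adjusted p of 0.0672 and 0.153 in edgeR. B2m stood farthest from the median, 1.59 above it. It differed by 0.07 on the log2 scale (adjusted p = 0.847, SE 0.29, edgeR) under total-count scaling, and under TMM scaling it was 1.64 (adjusted p = 4.02e-05, edgeR), the only call of the 9, where 39.4% of all tested genes were called and 20.6% were called higher.

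Leukocyte markers were lower in scivMSC than in DNCB under total-count scaling. All 8 pan-leukocyte markers, 10 of 10 neutrophil markers, 7 of 7 tested B cell markers and 4 of 10 T cell markers fell, where 62% of all tested genes were called lower. Under TMM scaling the calls of lower markers were 5, 10, 0 and 0. Their summed levels in scivMSC were 71.8 to 111 FPKM for the pan-leukocyte, 247 to 743 for the neutrophil, 3.57 to 8.11 for the B cell and 15.9 to 35.7 for the T cell list. Platelet markers, of which edgeR called none and 2 had an unadjusted p under 0.05, summed to 586 to 795 FPKM in DNCB and 720 to 837 in scivMSC, and under TMM scaling 7 of those 8 were called higher. Erythroid markers summed to 4070 to 5067 and 4467 to 5091 FPKM, with 1 of 7 tested called higher. Under TMM scaling all 7 were called higher, with a median log2 fold change of 2.52, where 20.6% of all tested genes were called higher. The ratio of B2m to Ptprc was 66.4, 37.7 and 41.4 in Solvent, 36.9, 29.2 and 28.8 in DNCB, 60.6, 60.9 and 76.9 in scMSC, and 209, 377 and 132 in scivMSC. The scivMSC libraries lay above all others. They did so too for H2-D1 over Ptprc (16.4 to 50.5, at most 15.0 elsewhere) and H2-K1 over Ptprc (3.34 to 5.32, at most 3.29 elsewhere). The highest B2m and H2-D1 ratios came from scivMSC replicate 2. Against DNCB alone, H2-Q7, H2-T23, Tap2 and Nlrc5 were also higher relative to Ptprc without overlap, while Tap1 and Tapbp overlapped. For Nlrc5 the ratio was 0.171 to 0.199 in scivMSC and 0.0599 to 0.0930 in DNCB. Ptprc is among the 8 pan-leukocyte markers that fell, while B2m itself overlapped between the groups. The part of platelets and erythroid cells in these ratios was not tested.

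Among the 30 other pathway genes, 22 fell and none rose in scivMSC against DNCB, where 62% of all tested genes were called lower, and under TMM scaling 4 were called lower and 1 higher, against 18.9% and 20.6% of all tested genes. The 4 were Ifngr1, Ifngr2, Irf1 and Rela, which encodes a subunit of NF-κB. Ifngr2 was at 0.364 FPKM in scivMSC (log2 fold change -3.88, SE 0.45, adjusted p = 6.73e-06, edgeR) and Ifngr1 at 1.31 (log2 fold change -2.95, SE 0.33, adjusted p = 5.17e-06, edgeR). Irf1 was at 1.18 FPKM (log2 fold change -2.57) and Rela at 0.718 (log2 fold change -2.70). All 5 genes of the immunoproteasome and PA28 fell, with a median log2 fold change of -1.59, next to -1.53 for all tested genes, and none was called under TMM scaling. Of the 6 endoplasmic reticulum genes 5 fell, among them Calr (log2 fold change -1.18), Pdia3 (-1.52), Hspa5 (-1.75) and Canx (-1.38), with none called under TMM scaling. Of the 8 tested H2 heavy chains 3 fell, with a median of -0.92, and H2-Q4 (log2 fold change -1.43, adjusted p = 0.00797, edgeR) was among them while H2-T24 (-0.95) and H2-Q6 (-0.72) were not. H2-T10, also among them, was below 1 FPKM in every library of both groups. Under TMM scaling 0 of these 8 were called lower and 1 was called higher. Their median was then 0.69, where that of all tested genes was 0.04, with H2-Q4 at 0.07, H2-T24 at 0.61 and H2-Q6 at 0.77.

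**Figure D4:**
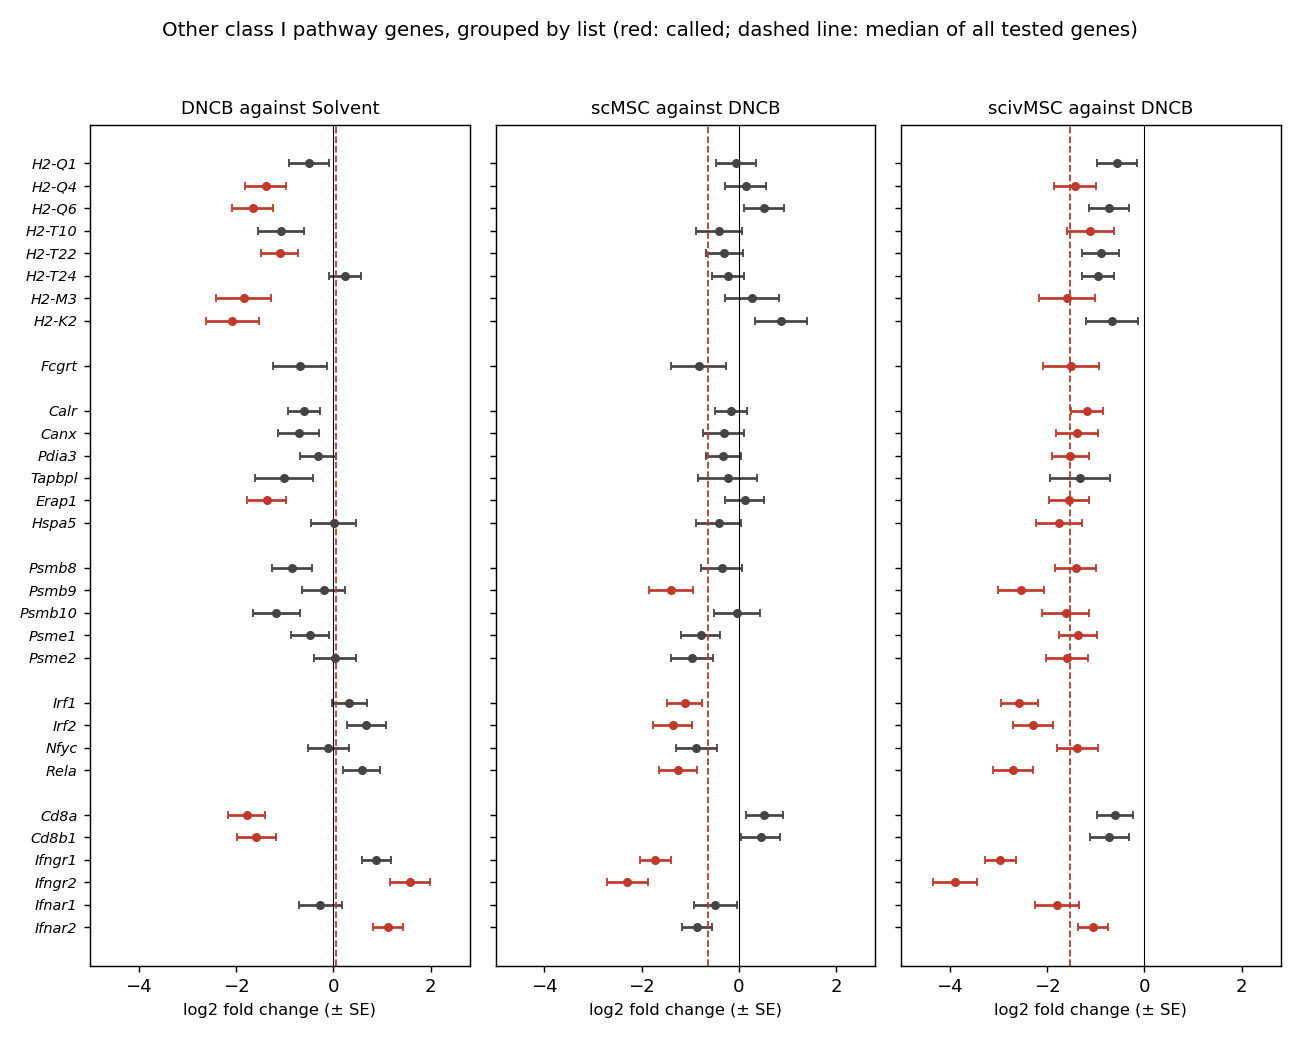
Each panel plots the log2 fold change with its standard error for the 30 other pathway genes in 1 comparison under total-count scaling, grouped by list, in red where called, with a dashed line at the median of all tested genes. In DNCB against Solvent 5 of 8 H2 heavy chains and both Cd8a and Cd8b1 are called lower and Ifngr2 and Ifnar2 higher, and Ifngr1 and Ifngr2 lie farthest below the dashed line in scMSC and scivMSC.

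The direct comparison of the injection routes called 5 of the 9 genes lower in scivMSC than in scMSC, where 30.8% of all tested genes were called and 30.4% were called lower. Nlrc5 fell 3.74-fold (log2 fold change -1.90, SE 0.39, adjusted p = 0.00933, edgeR), Tap1 3.07-fold (-1.62, SE 0.39, adjusted p = 0.0126, edgeR) and H2-Q7 2.84-fold (-1.51, SE 0.38, adjusted p = 0.0140, edgeR). On the log2 scale Tap2 fell by 1.37 (adjusted p = 0.0216, SE 0.40, edgeR) and Tapbp by 1.14 (adjusted p = 0.0464, SE 0.42, edgeR). The other 4 differed little under total-count scaling, H2-D1 by -0.36, H2-T23 by -0.41, H2-K1 by -0.13 and B2m by 0.02. The first 3 of these turned positive under TMM scaling (0.62, 0.57 and 0.66), with adjusted p of 0.0415, 0.0443 and 0.375 in edgeR. B2m was at 0.91 under that scaling (adjusted p = 0.00647, edgeR), short of a 2-fold change. Nlrc5 was the gene called under both scalings (TMM log2 fold change -1.06, adjusted p = 0.00298, edgeR, where 4.92% of all tested genes were called lower), and it lay 1.03 below the median of all tested genes. Without overlap, 5 of the 9 genes were lower in scivMSC than in scMSC, against 46.7% of all tested genes.

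These route calls depended on which libraries entered. A fit of the 6 libraries alone called none of the 9 genes in edgeR, with the 5 adjusted p from 0.0518 to 0.0878. Without scMSC replicate 1 the count was 1, Nlrc5. It was 3 without scMSC replicate 3, without scivMSC replicate 2 and without scivMSC replicate 3. All 10 T cell markers, 5 of 7 tested B cell markers and 5 of 8 pan-leukocyte markers also fell in scivMSC against scMSC under total-count scaling, and 0 of each list were called under TMM scaling. Their part was not tested. Among the other pathway genes 16 of 30 fell, against 30.4% of all tested genes, including Cd8b1 (log2 fold change -1.16), Ifngr1 (-1.24) and Irf1 (-1.46), and none was called under TMM scaling.

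Against Solvent, the 2 MSC groups differed in how many genes were called. In scMSC none of the 9 genes was called in edgeR, where 0.651% of all tested genes were called, although 6 had an unadjusted p under 0.05 and all 9 had log2 fold changes below 0. TMM scaling, under which 8.5% of all tested genes were called, DESeq2 and limma also called none. The lowest values were -1.30 for Nlrc5 (adjusted p = 0.0953, edgeR) and -1.19 for H2-Q7 (adjusted p = 0.104, edgeR), and both genes were lower in all scMSC than in all Solvent libraries, as were 40.6% of all tested genes. A fit of those 6 libraries alone called 4 genes lower, H2-Q7, Tap1, Tap2 and Nlrc5. The count was also 3 without scivMSC replicate 1 and 4 without scivMSC replicate 2.

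In scivMSC 7 of the 9 genes fell against Solvent, all but H2-K1 and B2m, where 61.8% of all tested genes were called and 59.2% were called lower. Nlrc5 fell 9.18-fold (log2 fold change -3.20, SE 0.41, adjusted p = 9.71e-05, edgeR), H2-Q7 6.49-fold (-2.70, SE 0.40, adjusted p = 0.000155, edgeR), Tap1 6.35-fold (-2.67, SE 0.41, adjusted p = 0.000165, edgeR) and Tap2 5.63-fold (-2.49, SE 0.42, adjusted p = 0.000222, edgeR). These 4 remained called lower under TMM scaling, at -1.79, -1.28, -1.26 and -1.04, where 13.4% of all tested genes were called lower. Tapbp (-1.57), H2-T23 (-1.29) and H2-D1 (-1.02) were called under total-count scaling, and under TMM scaling Tapbp was at -0.11 and H2-T23 and H2-D1 turned positive (0.28 and 0.54). Without Solvent replicate 1, H2-D1 (-0.62, adjusted p = 0.0503, edgeR) and H2-T23 (-0.84, adjusted p = 0.0187, edgeR) were no longer called. H2-D1 also lost its call without scivMSC replicate 2 (-0.96) and without scivMSC replicate 3 (-0.87), both short of 2-fold. H2-K1 was at -0.90 (adjusted p = 0.237, edgeR) and was called without scivMSC replicate 1 (-1.57, adjusted p = 0.0460, edgeR). With each library left out in turn, 5 to 8 of the 9 genes were called. B2m was at -0.03, and under TMM scaling it was called higher at 1.46, where 22.4% of all tested genes were called higher. Among the other pathway genes 28 of 30 fell, and 7 were called lower and 1 higher under TMM scaling. H2-K2, H2-T10 and Erap1 passed the filter through Solvent, where they are high, so they add no support to these counts. Cell type markers moved in this comparison too. All 10 T cell, 7 of 7 tested B cell and 3 of 3 tested natural killer cell markers fell, with 6, 7 and 2 called lower under TMM scaling, and 5 of 8 platelet markers rose, with 8 called higher under TMM scaling. Of 7 tested erythroid markers 1 rose, and all 7 were called higher under TMM scaling. Summed levels in scivMSC were 4.03 to 11.8 FPKM for the natural killer cell list, and platelet markers summed to 371 to 589 FPKM in Solvent. The part of these cell types in the lower Nlrc5, H2-Q7, Tap1 and Tap2 was not tested. In scMSC against Solvent 4 of 7 tested B cell and 1 of 3 tested natural killer cell markers were called lower, where 0.651% of all tested genes were called. Of the 10 T cell markers 0 were called in edgeR, but all had log2 fold changes from -1.18 to -0.80. An unadjusted p under 0.05 was found for 8 of them. Of the 10 neutrophil markers 4 were called higher. Under TMM scaling 10 were, with 7 of 8 platelet markers, where 8.5% of all tested genes were called.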

How the data were processed

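RNA of whole blood was sequenced from 12 mice, 1 library per mouse. The authors deposited 1 table with 24 value columns, holding for each library an estimated count and an FPKM value per gene. Per the file headers, rows are Ensembl genes with symbols and coordinates. The submitters' processing notes list HISAT2 2.0, StringTie 1.3.0, Bowtie 0.12.2 and the build mm8 without saying what each was used for. Of 21469 gene symbols matched to RefSeq GRCm38, 94.7% had a start within 5000 bp, so coordinates are given as GRCm38. Of the deposited counts from 1 to 12, 54.8% were 4, 8 or 12, so a fragment may be worth about 4 counts and the libraries 13e6 to 16.3e6 fragments. The strand setting is not given in the sources used here.

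Counts were rounded and tested with edgeR 4.0.16 (R 4.3.3, quasi-likelihood), with total counts as library size and all 12 libraries in 1 fit of 4 group means. Genes with at least 1 FPKM in at least 3 libraries were tested (5527), and called at a Benjamini-Hochberg adjusted p under 0.05 and a fold change over 2. Standard errors come from the change and its F statistic. P-values rest on the spread between the 3 mice within a group, pooled over the 4 groups and drawn toward that of other genes. They do not measure the spread of the 2 compared groups alone. Alternatives were TMM scaling, haemoglobin genes left out, no filter, a mean of at least 5 FPKM, DESeq2 1.42.0, limma 3.58.1 on log2(FPKM + 1) and log2(FPKM + 0.1), 6 libraries, a replicate block, and each library left out. The tools were tested on simulated data. The 9 genes and all gene lists were chosen with earlier results of these data known. Up to 4 genes per list are named, those with the highest mean FPKM. Other named genes were chosen after their values were seen. Sequences were not used here, and 1 gene of the pathway lists is not reported here.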

Additional observations from a re-analysis of the deposited data

How the results depend on the processing

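Scaling was the choice that turned most directions. Of the 9 genes, the calls under TMM scaling were 2 in scMSC against DNCB (1 under total-count scaling), 1 in scivMSC against DNCB (6) and 1 in scivMSC against scMSC (5), and DESeq2 gave the same counts of 2, 1 and 1. Log2 fold changes that turned from negative to positive under TMM scaling are given here with the DESeq2 value second. In scMSC against DNCB these were H2-K1 (0.14, 0.10) and Tap1 (0.41, 0.36). In scivMSC against DNCB they were H2-K1 (0.80, 0.77), H2-D1 (0.36, 0.36), H2-Q7 (0.57, 0.56), H2-T23 (0.23, 0.23) and Nlrc5 (0.15, 0.14). In scivMSC against scMSC they were H2-K1 (0.66, 0.67), H2-D1 (0.62, 0.66) and H2-T23 (0.57, 0.61). In scMSC against Solvent they were B2m (0.55, 0.54) and Tapbp (0.17, 0.16), and in scivMSC against Solvent H2-K1 (0.53, 0.54), H2-D1 (0.54, 0.58), H2-T23 (0.28, 0.31) and B2m (1.46, 1.49). With haemoglobin genes left out, the calls against DNCB numbered 0 for scMSC and 3 for scivMSC, scMSC against Solvent had 1, and Tap1 in scMSC against DNCB (0.10), B2m in scMSC against Solvent (0.21) and B2m in scivMSC against Solvent (0.38) turned positive. Without a filter 0 genes were called in scMSC against DNCB. A mean of at least 5 FPKM left only H2-K1, H2-D1, H2-T23 and B2m, with 2 passing the F test and counts of 0 in DNCB against Solvent, 2 in scivMSC against DNCB, 0 in scivMSC against scMSC and 2 in scivMSC against Solvent. With limma on log2(FPKM + 1), scMSC against DNCB had 0 calls and the comparison of scivMSC with scMSC had 1. In that fit H2-K1 in DNCB against Solvent was at 0.072, B2m in scivMSC against DNCB at -0.0077, B2m in scivMSC against scMSC at -0.065 and B2m in scMSC against Solvent at 0.033. On log2(FPKM + 0.1) the same values were 0.13, -0.0079, -0.066 and 0.034. A fit of the 6 libraries compared gave 0 calls in scivMSC against scMSC and 4 in scMSC against Solvent.

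Replicate numbers did not clearly pair the mice. Over 18 same-numbered pairs of libraries the correlation of deviations from the group means ran from -0.20 to 0.17, with 3 pairs over 0.1. Other pairs across groups ran from -0.22 to 0.14. With 7 of 12 libraries correlating best with a library of their own number, the data give at most a hint of pairing. With the replicate number as a block, 2 genes were called in scMSC against DNCB (1 without it, Tapbp being added at -1.04). H2-Q7 in scivMSC against DNCB gained a call (-1.09), H2-D1 in scivMSC against Solvent lost its call (-0.99), and H2-K1 in DNCB against Solvent was at 0.18, B2m in scivMSC against DNCB at -0.020, B2m in scivMSC against scMSC at -0.058 and B2m in scMSC against Solvent at 0.026.

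With each of the 12 libraries left out in turn, the number of genes called ran from 0 to 2 in scMSC against DNCB, from 1 to 5 in scivMSC against scMSC and from 0 to 4 in scMSC against Solvent. Log2 fold changes that crossed 0 ran as follows. In DNCB against Solvent they ran from -0.73 to 0.53 for H2-K1, from -0.082 to 0.58 for H2-T23, from -0.26 to 0.30 for B2m and from -0.47 to 0.14 for Tap2. They ran from -0.35 to 0.25 for B2m in scivMSC against DNCB, from -0.80 to 0.48 for H2-K1 and from -0.39 to 0.21 for B2m in scivMSC against scMSC, and from -0.44 to 0.36 for B2m in scivMSC against Solvent. In scMSC against Solvent they ran from -1.37 to 0.0071 for H2-K1, from -0.22 to 0.34 for B2m and from -0.78 to 0.043 for Tapbp. None of the genes with a crossing was called in that comparison. Over the 6 comparisons and all alternatives, 949 values of single genes kept their direction and their side of the thresholds, 65 lost a call, 26 gained one and 64 changed sign. The cause was not tested. Depth limits Nlrc5, Tap1, Tap2 and H2-Q7 most, whose counts went down to 71, 125, 108 and 160 in a library.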

Other observations

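H2-K1 and H2-D1 did not keep a fixed proportion. The ratio of their FPKM values was 0.219, 0.222 and 0.0468 in Solvent, 0.0629, 0.154 and 0.151 in DNCB, 0.231, 0.126 and 0.113 in scMSC, and 0.261, 0.0662 and 0.227 in scivMSC. Solvent replicate 3, DNCB replicate 1 and scivMSC replicate 2 lay between 0.0468 and 0.0662, and the other 9 libraries between 0.113 and 0.261. The low libraries belong to 3 groups. The ratio was chosen after the values were seen.

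Class I-like molecules encoded outside H2 were at low levels in blood. Of 5 such genes only Fcgrt, which encodes the heavy chain of the neonatal Fc receptor, passed the filter, with a mean of 0.809 FPKM over the 12 libraries. It fell in scivMSC against DNCB (log2 fold change -1.50, SE 0.58, adjusted p = 0.0301, edgeR), and under TMM scaling it was at -0.03. Cd1d1, which presents lipids to natural killer T cells, had a mean of 0.511 FPKM, Hfe of 0.174, Mr1 of 0.128 and Cd1d2 of 0.0289, and these were not tested.

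The genes whose log2(FPKM + 1) followed the mean of the 9 genes most closely, each gene first scaled to mean 0 and SD 1 over the 12 libraries, were Gpd1l (Pearson's r = 0.988), Eif3f (0.982), Rnf4 (0.982), Fnta (0.981) and Rbck1 (0.980). Rbck1 encodes HOIL-1, a subunit of the linear ubiquitin ligase, and Eif3f a subunit of a translation initiation factor. The 12 libraries share depth and haemoglobin content, and no test was made. Of the 9 genes themselves, Tap2 (0.948) and Tap1 (0.925) lay closest to that mean and B2m (0.542) farthest.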
